A study of Mus musculus with 5 samples.

Results

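Genes of the Pax, Sox, Tbx, Lhx, sine oculis (Six2 to Six6 among them), Irx, Dlx and Nkx families code for transcription factors that lay out organs and body axes in the embryo, and 79 of the 20807 autosomal protein-coding genes of the GENCODE M21 annotation (mouse genome build mm10) belong to them by their symbol, in 8 families. The members were taken by symbol, though the families themselves were picked with earlier results of these data known: 9 Pax, 18 Sox, 12 Tbx, 8 Lhx, 6 sine oculis, 6 Irx, 6 Dlx and 14 Nkx genes. Chromatin came from 3T3-L1 cells, a mouse fibroblast line that turns into fat cells when treated with a hormone cocktail. All cells carried a lentivirus for stable expression of macroH2A1.2, a histone variant, fused to GFP. Chromatin was cut with micrococcal nuclease and immunoprecipitated with an anti-GFP antibody from 2 replicates of undifferentiated cells (pre-adipocytes) and 2 of differentiated cells (mature adipocytes), and 1 library made without antibody was the control. The antibody therefore reads the tagged and virally expressed protein, not the cell's own macroH2A1.2, and the files hold no cells without it. Mature adipocytes is the paper's name for the differentiated cells. The paper reports less lipid in such cells after differentiation than in cells expressing GFP alone. How far these samples had matured was not measured here. The conditions were read from the sample titles. The description fields of both mature samples name the state before differentiation, and every comparison between conditions rests on the titles. The methods place the immunoprecipitation in mouse adipose tissue, whereas the labels give 3T3-L1 cells.

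MacroH2A1 replaces ordinary H2A in nucleosomes and carries a large globular domain outside the nucleosome core. It is found in broad stretches of silent chromatin, including the inactive X chromosome, and developmental genes repressed by Polycomb complexes are among its known locations. Most of the 79 members are such genes: each is switched on in a few embryonic tissues and kept silent elsewhere. Pax proteins bind DNA through a paired domain, Sox proteins through an HMG box, Tbx proteins through a T-box, and Lhx, sine oculis, Irx, Dlx and Nkx proteins through homeodomains. Some act in fat or in its precursors, such as Tbx1 and Lhx8, used as markers of beige and brown fat, or Irx3 and Irx5, which have been linked to adipocyte browning. The tables list no expression, so whether a member was transcribed in these cells, and whether adipocyte markers were present, was not measured here.

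The unit of measurement was a region, a stretch of the genome where SICER, a program that joins neighbouring 200-bp windows of enrichment, found more ChIP reads than control reads. The largest false discovery rate (FDR) in the tables was 0.001. A locus is the gene plus 10 kb on each side, and the covered share is the percentage of its bases inside regions. Absence of a region says only that no stretch passed this threshold. The 4 samples held 36468, 38546, 59375 and 61196 regions (pre-adipocyte replicates 1 and 2, then mature replicates 1 and 2, the order used throughout). Pre-adipocyte replicate 2 stood apart: its library was 0.549 times the size of the control library, against 1.2 to 1.23 times in the other 3 samples, and its regions covered less of nearly every locus below. For the differences between conditions over all members, values without it are given too, while other averages and counts include it.

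Sequence context is shown first for 4 members, since the regions sat beside gene starts more often than over them. The windows are RefSeq promoters (build GRCm38.p6), 300 bases each on the gene's strand, with every CpG dinucleotide in capitals. Nkx2-5, a regulator of heart muscle, has a window with 9 CpG at chr17:26841516-26841815 (minus strand), of which 300 bases lay in a region in pre-adipocyte replicate 1 and 215 bases in mature replicate 1.
Nkx2-5: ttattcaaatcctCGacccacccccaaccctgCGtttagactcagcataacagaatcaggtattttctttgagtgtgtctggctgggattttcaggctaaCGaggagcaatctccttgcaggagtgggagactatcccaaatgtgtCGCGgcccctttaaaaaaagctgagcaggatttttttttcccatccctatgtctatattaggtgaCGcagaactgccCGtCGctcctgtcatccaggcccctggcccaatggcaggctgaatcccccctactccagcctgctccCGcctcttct
Sox8, a relative of Sox9 active in testis and neural crest, has 21 CpG at chr17:25570637-25570936 (minus strand). A region reached this window in mature replicate 1, and the nearest region was 236 bases away in pre-adipocyte replicate 1 and in mature replicate 2.
Sox8: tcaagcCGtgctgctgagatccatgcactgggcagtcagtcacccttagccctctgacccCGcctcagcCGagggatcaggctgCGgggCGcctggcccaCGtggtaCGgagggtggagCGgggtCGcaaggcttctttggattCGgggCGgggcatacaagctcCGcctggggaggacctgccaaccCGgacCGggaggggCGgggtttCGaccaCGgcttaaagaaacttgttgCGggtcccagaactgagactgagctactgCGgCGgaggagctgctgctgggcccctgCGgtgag
Lhx2, a LIM-homeodomain factor of forebrain and hair follicle stem cells, has windows with 34 and 29 CpG at chr2:38339031-38339330 and chr2:38351058-38351357 (plus strand). Regions came within 670, 870, 470 and 1670 bases of the first and within 57, 4057, 1257 and 457 bases of the second in the 4 samples, and entered neither.
Lhx2 first promoter: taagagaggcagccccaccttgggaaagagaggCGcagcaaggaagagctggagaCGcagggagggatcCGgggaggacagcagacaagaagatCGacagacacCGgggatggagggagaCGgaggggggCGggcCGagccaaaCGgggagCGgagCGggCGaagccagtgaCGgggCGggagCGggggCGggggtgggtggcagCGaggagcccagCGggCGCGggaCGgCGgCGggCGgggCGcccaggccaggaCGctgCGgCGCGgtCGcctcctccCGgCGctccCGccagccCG
Lhx2 second promoter: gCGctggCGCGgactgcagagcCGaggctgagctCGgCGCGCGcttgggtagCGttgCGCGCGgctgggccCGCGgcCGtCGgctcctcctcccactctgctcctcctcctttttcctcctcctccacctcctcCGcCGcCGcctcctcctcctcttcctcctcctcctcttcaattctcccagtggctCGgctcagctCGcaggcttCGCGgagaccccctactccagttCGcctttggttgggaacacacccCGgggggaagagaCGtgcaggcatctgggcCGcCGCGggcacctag
Sox2, a pluripotency factor, has 27 CpG at chr3:34649745-34650044 (plus strand) and is shown as a member with no region in any sample, the nearest lying between 133744 and 1380556 bases away.
Sox2: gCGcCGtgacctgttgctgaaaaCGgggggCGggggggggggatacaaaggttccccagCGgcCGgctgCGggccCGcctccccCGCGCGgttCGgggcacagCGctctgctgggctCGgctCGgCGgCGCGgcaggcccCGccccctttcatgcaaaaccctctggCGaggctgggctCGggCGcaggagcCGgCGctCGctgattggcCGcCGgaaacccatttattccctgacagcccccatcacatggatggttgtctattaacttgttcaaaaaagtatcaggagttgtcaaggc

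Developmental loci held regions more often than the genome's other genes. At least 1 region overlapped the locus of 37, 34, 43 and 45 of the 79 members, or 46.8%, 43.0%, 54.4% and 57.0%. Among the other 20728 genes, weighted to the same deciles of gene length, the shares were 31.2%, 26.2%, 36.7% and 36.8%. In every sample the members were above the other genes. Over the samples, 55 members (69.6%) had a region in at least 1, against 53.7% of all genes and 48.3% of the other genes at equal length. In all 4 samples 25 members (31.6%) had one, against 21.1% of all genes and 17.9% of the other genes at equal length. The 79 loci join into 75 separate stretches of 4571374 bases, since a few members are neighbours.

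The covered share told the same order. A member locus was covered by 15.6%, 6.32%, 16.2% and 14.6% on average, and other loci of equal gene length by 8.26%, 3.68%, 8.13% and 7.83%. The difference was 7.37, 2.64, 8.08 and 6.77 percentage points, with a mean of 6.21 ± 2.44 (SD, n = 4). It was above 0 in 4 of 4 samples, and the exact sign permutation test over samples gave p = 0.125 (two-sided), the smallest p that 4 samples allow. All samples share the control library and the same loci, so they are not fully independent. The low value belonged to pre-adipocyte replicate 2, whose other loci were also the least covered. Among the members with a region, the mean covered share was 33.4%, 14.7%, 29.8% and 25.6%, compared with 23.2%, 12.1%, 19.7% and 18.9% among the other genes with one.

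**Figure D1:**
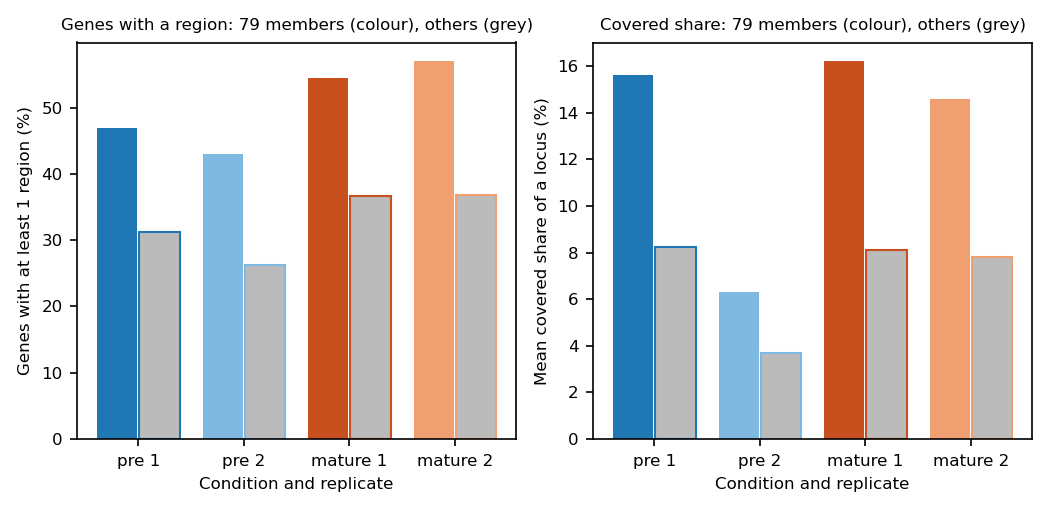
Share of genes with at least 1 region (left, %) and mean covered share of a locus (right, %) in each of the 4 samples, for the 79 members (coloured bars) and for the other autosomal protein-coding genes weighted to the members' length deciles (grey bars). Each bar is 1 sample, so there are no error bars; the coloured bar is the taller in every pair, and pre-adipocyte replicate 2 has the shortest bars on the right at 6.32% and 3.68%.

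The excess was not limited to the genes themselves. In the 500 kb on each side of the locus, coverage averaged 14.1%, 6.20%, 15.7% and 15% around members and 11.4%, 5.27%, 11.5% and 11% around other genes of equal length. Other loci were poorer than their surroundings, by 3.17, 1.59, 3.34 and 3.17 percentage points. Member loci differed from theirs by 1.54, 0.121, 0.486 and -0.385 percentage points, a mean of 0.441 ± 0.816 (SD, n = 4; exact sign permutation p = 0.375). The locus was covered more than its surroundings in 32 of 79 members (40.5%) and in 21.5% of other genes. Across the 79 members the 4-sample mean coverage of the locus went with that of its surroundings (Pearson r = 0.618, Spearman rho = 0.615), as it did across the 20728 other genes (0.495 and 0.558). These correlations run across genes, many of which share surroundings, and are a description.

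Within the loci, coverage was lower in exons than in the flanks. Member exons were covered by 10.9%, 3.16%, 9.33% and 7.97% of their bases and introns by 12.5%, 5.17%, 13.1% and 13.4%. These shares pool bases, and the long genes Sox5 (953553 bp) and Sox6 (567925 bp) hold much of the members' 2694672 intron bases. The 10 kb upstream were covered by 17%, 5.23%, 17.6% and 17.7%, and the 10 kb downstream by 15.8%, 8.20%, 19.5% and 14.0%. For the other genes the exons stood at 4.86%, 2.00%, 5.10% and 4.90% and the upstream flank at 12.4%, 5.64%, 11.8% and 11.2%. Their downstream flank stood lower than their upstream flank, at 7.78%, 3.43%, 7.69% and 7.48%. Member exons were thus covered more than those of other genes in all 4 samples, whereas the upstream flank of members was the more covered in 3 of 4 samples.

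The gene start itself was mostly free of regions. It lay in a region for 6, 2, 4 and 6 members (7.59%, 2.53%, 5.06% and 7.59%), compared with 6.01%, 2.20%, 5.73% and 5.48% of other genes of equal length. No member had its start in a region in all 4 samples. In at least 1 sample 14 members did (17.7%), against 11.7% of all genes and 11.5% of other genes at equal length. Nkx2-5 was the most regular, with its annotated GENCODE start inside a region in pre-adipocyte replicate 1 and both mature replicates. The condition means were 4 ± 2.83 members in pre-adipocytes and 5 ± 1.41 in mature adipocytes (SD, n = 2 each; exact permutation p = 1, two-sided), a difference within the spread between replicates.

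Coverage dipped at the start. On the downstream side it stayed low for several kb in mature replicate 1 and pre-adipocyte replicate 2. Between 5 and 20 kb from the start, on either side, positions lay in a region for 16.5%, 6.96%, 18.6% and 15.8% of members. The share at the start was 0.460, 0.364, 0.272 and 0.481 times those values. For other genes the same ratio was 0.606, 0.489, 0.590 and 0.586, so the dip was proportionally deeper for the members in every sample. With 79 genes the member values at the start rest on 2 to 6 genes.

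**Figure D2:**
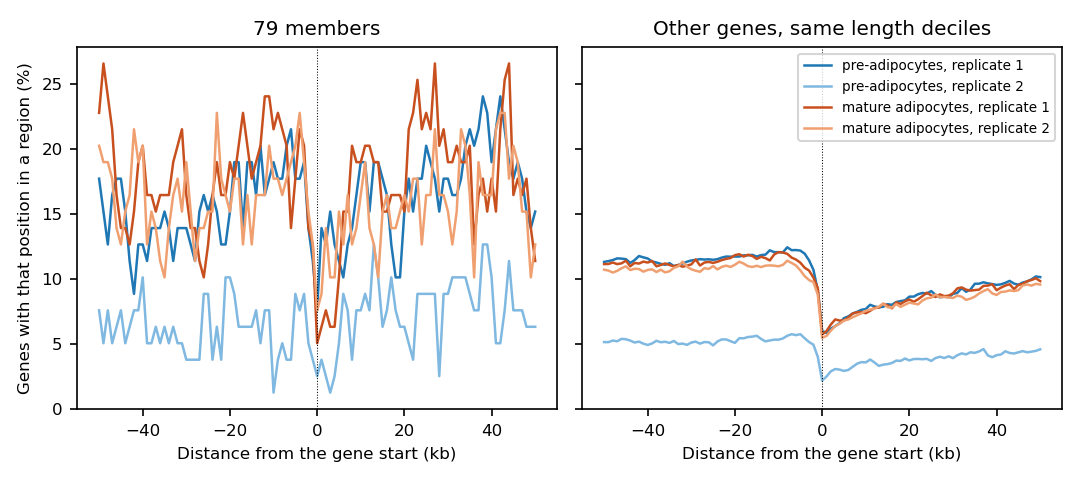
Share of genes whose position at a given distance from the gene start lies in a region (%), in steps of 1 kb from 50 kb upstream to 50 kb downstream, for the 79 members (left) and for other genes weighted to the same length deciles (right), with a line for each sample. Lines fall at 0 kb in both panels, to between 2.53% and 7.59% of members and between 2.20% and 6.01% of other genes.

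Promoter windows were also examined by sequence. A promoter was found for 56 of the 79 members (70 windows of 300 bases), and 23 members had no match in the table. The median member window held 17 CpG against 14 over all 19174 windows of autosomal protein-coding genes. A region overlapped 6 of the 70 member windows (8.57%) in at least 1 sample, those of Nkx2-5, Pax2, Pax8, Sox8, Tbx1 and Tbx10, against 12.6% of all windows. Members were thus below all genes here and above them at GENCODE starts (17.7% against 11.7%). A window does not always hold the GENCODE start: that of Nkx2-5, at chr17:26845009, lies outside its window. Among windows with at least 15 CpG the shares were 3 of 45 (6.67%) for members and 7.41% for all genes, and among windows with fewer than 15 CpG they were 3 of 25 (12%) and 17.6%. The counts of member windows are too small to order the 2 classes. CpG was counted as the letters CG, which read the same on both strands.

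The families differed in how much of their loci was covered. Dlx loci, which pattern the jaw, limb and forebrain, had the highest mean coverage in all 4 samples (33.9%, 17.3%, 26.9% and 29.1% over 6 genes). Pax loci came next in each sample at 21.9%, 8.11%, 21.9% and 18.7% over 9 genes, and 4 of them had a region in every sample. Nkx loci averaged 19.3%, 6.99%, 16.3% and 16%, with a region in every sample at 5 of 14. Sox loci stood at 14.4%, 4.87%, 13.7% and 13.9% (7 of 18 in every sample), Tbx loci at 12.5%, 4.81%, 13.8% and 11.5% (4 of 12) and Lhx loci at 11.2%, 5.85%, 19.0% and 15.8% (2 of 8). Sine oculis loci, at 4.00%, 2.84%, 12.3% and 2.29%, and Irx loci, at 6.87%, 2.55%, 8.97% and 9.73%, had no member with a region in all 4 samples. Families hold 6 to 18 genes, several of them neighbours that share regions, and their order was not tested.

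**Figure D3:**
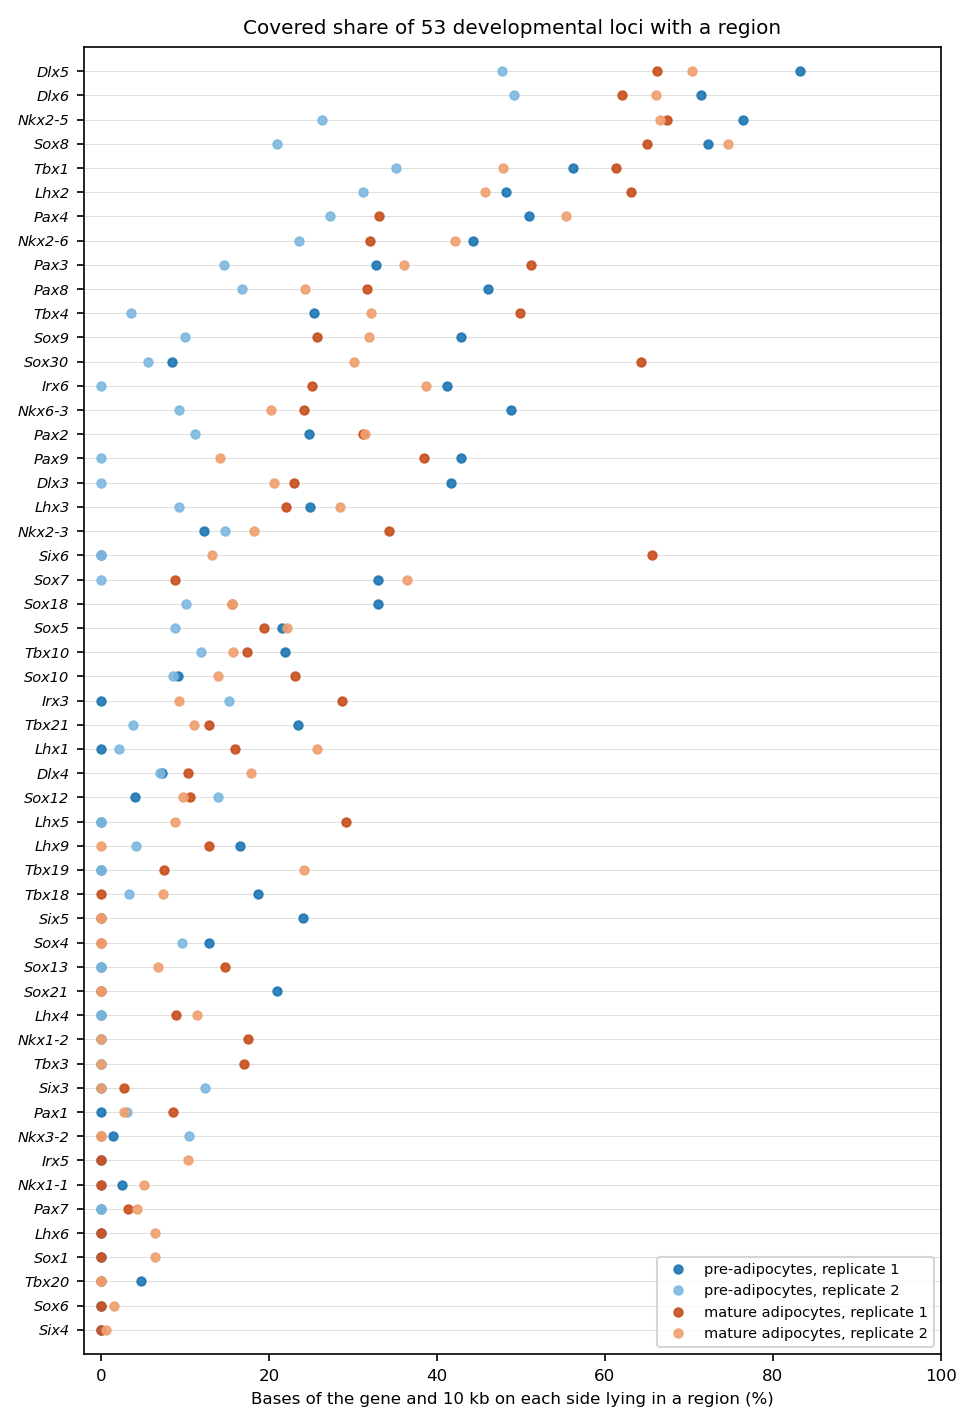
Covered share of the locus (%, horizontal axis) for 53 of the 55 members with a region in at least 1 sample, ordered by the mean over the 4 samples, with a point for each sample. Dlx5 is at the top with 47.8% to 83.2%, and the points of pre-adipocyte replicate 2 (light blue) lie to the left of the other 3 in nearly all of the upper rows.

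The most covered members came from several families. Dlx5, a homeobox factor of bone and craniofacial development, had 83.2%, 47.8%, 66.2% and 70.4% of its locus in regions. Its neighbour Dlx6 had 71.5%, 49.1%, 62.1% and 66.0%. Their loci overlap on chromosome 6 and share regions, so together they are a single stretch of 38752 bases covered by 74.5%, 40.8%, 63.9% and 69.6%. The longest region at any member belonged to it: in pre-adipocyte replicate 1 it ran from the upstream side of Dlx6 for 86800 bp (chr6:6768601-6855400) and held 3956 ChIP reads and 1902 control reads, a scaled fold enrichment of 1.73. Even so, neither start lay in a region, except that of Dlx6 in pre-adipocyte replicate 2.

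Nkx2-5 had 76.5%, 26.3%, 67.4% and 66.6% of its locus in regions. Sox8 had 72.2%, 21.0%, 65.0% and 74.7%, and the reads in its regions exceeded the scaled control 2.43-, 3.00-, 2.40- and 2.47-fold. At both Nkx2-5 and Sox8 pre-adipocyte replicate 2 was far below the other samples. The mature values lay below that of pre-adipocyte replicate 1 at Nkx2-5 and on either side of it at Sox8. Tbx1, the T-box gene of the pharyngeal arches and a marker of beige adipocytes, had 56.1%, 35.1%, 61.4% and 47.8%. Lhx2 had 48.2%, 31.2%, 63.1% and 45.7%, and Pax4, a factor of pancreatic beta cells, 50.9%, 27.2%, 33.1% and 55.3%. For both, as for Tbx1, the values of mature adipocytes lay on either side of that of pre-adipocyte replicate 1.

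**Figure D4:**
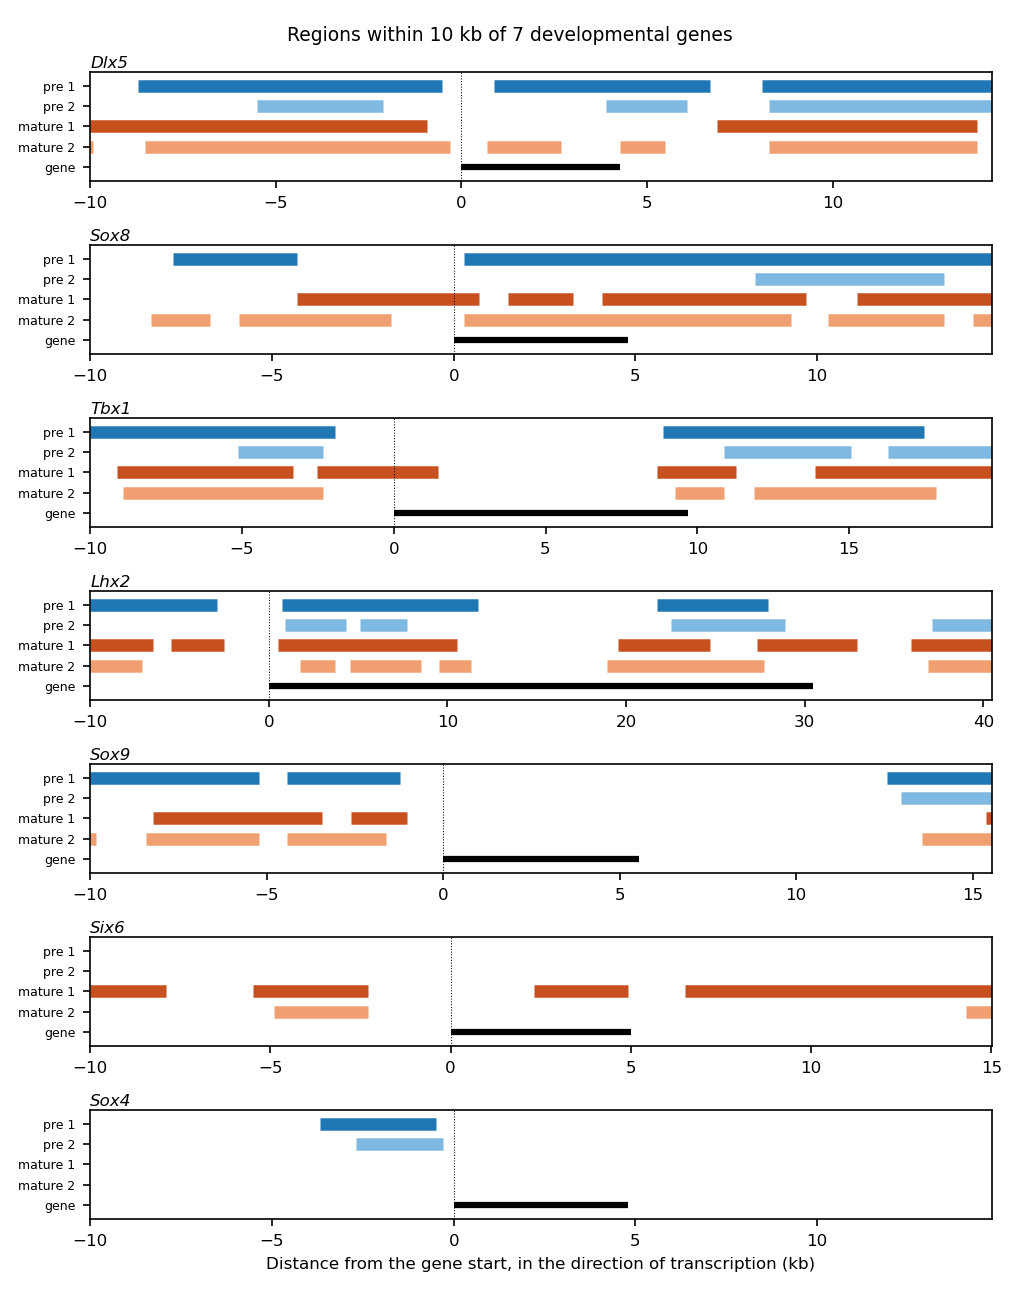
Regions in the 4 samples (coloured bars, 1 row each) at 7 members, drawn by distance from the gene start in kb along the direction of transcription, with the gene as a black bar; each panel ends 10 kb beyond the gene. Regions flank the starts (dotted line) of Dlx5, Lhx2 and Sox9 without covering them, Six6 has regions in the mature rows alone and Sox4 in the pre-adipocyte rows alone.

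Another 24 members had no region in any sample: Sox15, Tbx2, Sox17, Nkx2-9, Nkx2-1, Sox11, Irx1, Irx2, Nkx2-4, Pax6, Dlx2, Dlx1, Six2, Irx4, Pax5, Tbx15, Tbx5, Nkx6-1, Lhx8, Nkx2-2, Sox2, Tbx6, Nkx6-2 and Sox14. Among them are Pax6, needed for the eye, Nkx2-1 for lung and thyroid, Pax5 for B cells and Tbx5 for forelimb and heart. The surroundings of these loci were thinly covered, with a 4-sample mean of 2.74% at the median locus and a range of 0% to 20.6%. For the 25 members with a region in all 4 samples the median was 19.3% (4.12% to 47.6%), and for the 30 with a region in 1 to 3 samples it was 10.3% (0.125% to 38.2%). The same groups had medians of 6, 14 and 9 other protein-coding genes within 500 kb. Sox2, Sox11, Irx1 and Irx2 had no other protein-coding gene that near, and Irx2 had no region in its surroundings in any sample. Some empty loci nevertheless lay in covered surroundings. Dlx1 and Dlx2 are neighbours without a region, and the 500 kb around Dlx1 were covered by 26.0%, 12.1%, 22.6% and 20.5%.

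Neighbouring members went together in some places and not in others. Of 9 groups of members lying within 100 kb of each other, Dlx1 with Dlx2 and Nkx2-4 with Nkx2-2 had no region in any sample, between them included. Dlx3 and Dlx4 stood at 26.8%, 3.90%, 18.3% and 21.2%. Tbx4, a hindlimb factor, had 25.4%, 3.62%, 49.9% and 32.2% of its locus in regions, whereas Tbx2 beside it had none. The stretch that joins them had 12.2%, 5.41%, 38.1% and 22.6%. Pax9, needed for teeth and thymus, had 42.9%, 0%, 38.5% and 14.1%, and Nkx2-1 and Nkx2-9 beside it had no region; the stretch with all 3 had 8.76%, 0%, 9.96% and 4.68%. Six3 and Six2 lie in a stretch covered by 0%, 8.03%, 1.06% and 2.75%.

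Differentiation was the comparison of the design. More members had a region in mature adipocytes than in pre-adipocytes (44.0 ± 1.41 against 35.5 ± 2.12, SD, n = 2 each). The difference was 8.5 members, and 7 without pre-adipocyte replicate 2. The groups did not overlap, and the difference of 8.5 members gave an exact permutation p of 0.333 (two-sided), the smallest that 2 samples against 2 allow. Nor did the shares of other genes of equal length overlap, at 31.2% and 26.2% against 36.7% and 36.8%. The rise is therefore nothing particular to the members. Whether the 2 replicates of a condition are separate cultures is not stated beyond the word biological, so the spread may be partly technical. The covered share of the joined member loci, in which the long genes Sox5 and Sox6 weigh most, was 13.5%, 5.41%, 14.6% and 13.7%. The mean difference of 4.71 percentage points gave an exact permutation p of 0.333 (two-sided). Without pre-adipocyte replicate 2, the shallow library, it was 0.667 percentage points. A region was present in both pre-adipocyte replicates at 29 members (36.7%), compared with 24.2% of all genes and 20.8% of other genes at equal length. In both mature replicates it was present at 38 members (48.1%), compared with 34.4% and 30.1%.

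Enrichment was also summed inside the regions. The members' regions held 26974, 4873, 28694 and 26956 ChIP reads in 102, 83, 177 and 185 regions, of which Sox5 alone, a gene of 953553 bp, held 33, 29, 52 and 63. Summed over these regions, ChIP reads exceeded control reads, scaled to library size, 1.61-, 1.95-, 1.72- and 1.80-fold. Regions of all autosomes gave 1.58-, 1.92-, 1.73- and 1.75-fold. The control library held 17.5, 17.6, 17.5 and 17 reads per kb of the members' regions, and 18.5, 19.4, 18.5 and 18.6 per kb of all regions. On the log2 scale the member values were 0.69, 0.96, 0.78 and 0.85, those of mature adipocytes lying between those of pre-adipocytes, and mature minus pre-adipocytes was -0.014 (exact permutation p = 1, two-sided). The highest value belonged to the shallow library, and without it the difference was 0.123, the other way round. These sums run over regions called separately in each sample by their enrichment, covering 13.5%, 5.41%, 14.6% and 13.7% of the joined loci, so the difference moves with what was called and is no measure of a change in enrichment.

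Of the regions that could be tested one by one, none at a member passed the test for a change in read density between conditions. Overlapping regions of the 4 samples were merged into 62927, of which 12857 were called in every sample and were tested for ChIP read density with edgeR's quasi-likelihood test. Reads were counted inside each sample's called pieces and set against the called length, so a gain or loss of covered width was not tested. At an adjusted p under 0.05, 11 regions passed (0.0856%), 10 of them towards more reads after differentiation and 1 towards fewer. None of the 42 at members was among these, and at the share over all regions a count of 0 is nothing particular to the members. Without adjustment 3 of the 42 (7.14%) had p under 0.05, compared with 1176 (9.15%) of all tested regions, and DESeq2 also called 0 at members. The 42 regions lie at 23 members, 7 of them at Sox5, and 21 of the 42 were higher in mature adipocytes. Their log2 fold changes ran from -0.153 to 0.275 with a median of 0.0031.

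The smallest p belonged to a region inside Lhx2 (chr2:38339801-38351000), with a log2 fold change of 0.24 ± 0.11 (SE; edgeR adjusted p = 0.515). Next were a region upstream of Tbx18 (chr9:87732201-87758000), a T-box gene of the epicardium and of the heart's pacemaker, with 0.20 and edgeR adjusted p = 0.517, and the long region upstream of Dlx6 (chr6:6768601-6855400), with -0.12 and edgeR adjusted p = 0.539. The last of these passed when pre-adipocyte replicate 2 was left out, which leaves a single pre-adipocyte sample that is assumed to vary like the mature replicates, at a log2 fold change of -0.18 ± 0.035 (SE; edgeR adjusted p = 0.000838). Without that library 224 of all tested regions passed, against 11 with it. Without pre-adipocyte replicate 1 the number was 112, without mature replicate 1 it was 5 and without mature replicate 2 it was 1, and no region at a member was among these.

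**Figure D5:**
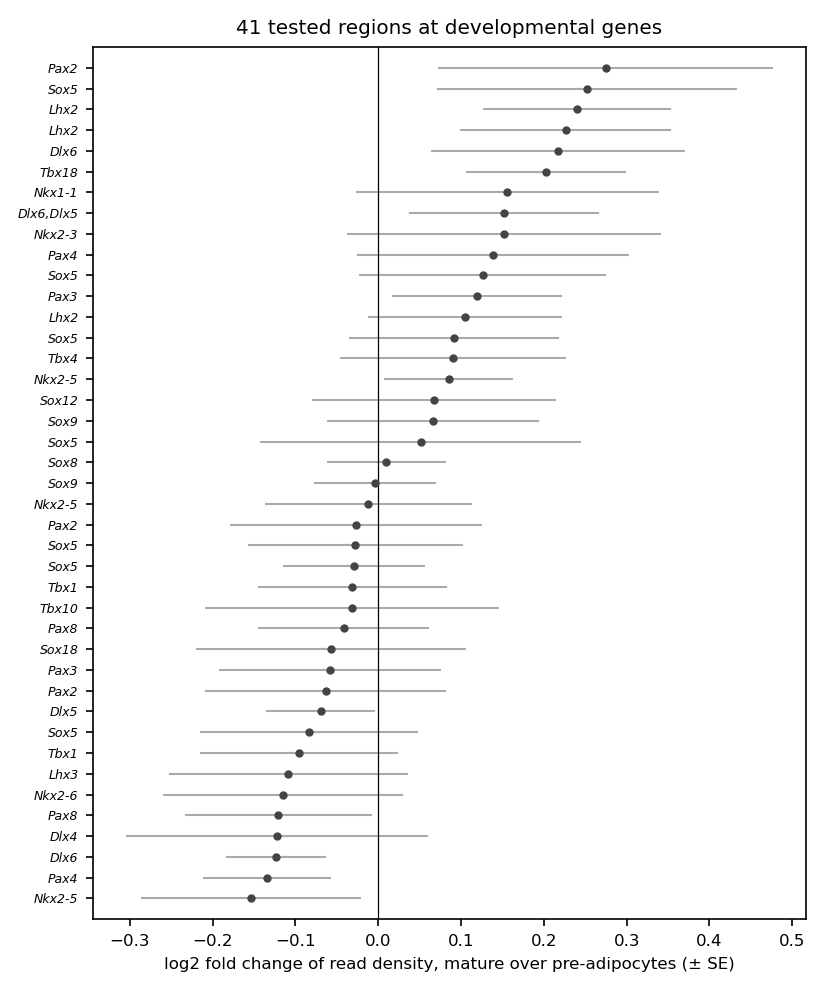
Log2 fold change of ChIP read density, mature over pre-adipocytes (horizontal axis), for 41 of the 42 tested regions at members, ordered by value and named by the member they overlap. Points are edgeR estimates and bars are ± 1 SE; the values run from -0.153 to 0.275, and 20 of the 41 lie above 0.

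Some members had regions in a single condition. In both mature replicates and neither pre-adipocyte replicate these were 6 members (7.59%), against 4.86% of all genes and 4.42% of other genes at equal length. They were Six6, an eye and pituitary homeobox gene (0%, 0%, 65.6% and 13.2%), Lhx5, of the developing forebrain (0%, 0%, 29.1% and 8.81%), Tbx19, which drives pro-opiomelanocortin in the pituitary (0%, 0%, 7.46% and 24.2%), Sox13, known from gamma delta T cells (0%, 0%, 14.8% and 6.77%), Lhx4, of the pituitary and motor neurons (0%, 0%, 8.96% and 11.4%) and Pax7, the factor of muscle satellite cells (0%, 0%, 3.26% and 4.29%). The replicates of mature adipocytes were far apart at Six6 and close at Lhx4 and Pax7. In both pre-adipocyte replicates and neither mature replicate there were 2 members (2.53%), against 0.913% of all genes and 0.883% of other genes at equal length. These were Sox4, which takes part in many progenitor cells (12.9%, 9.68%, 0% and 0%), and Nkx3-2, a skeletal gene (1.38%, 10.4%, 0% and 0%). Without pre-adipocyte replicate 1 the members in mature adipocytes alone numbered 10, and without mature replicate 1 they numbered 11. Without pre-adipocyte replicate 2 the members in pre-adipocytes alone numbered 5. Leaving a sample out makes the rule easier to meet, so these counts can only stay or rise. The Sox4 region ended 488 and 288 bases from the gene start in the pre-adipocyte replicates, with 2.43- and 2.41-fold enrichment, and in mature adipocytes the nearest region was 16888 and 16288 bases away.

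Around the loci, a gain in mature adipocytes was clearest at the Irx genes of chromosome 8. The 500 kb on each side of Irx3 were covered by 2.08%, 0.44%, 25.8% and 26.7%. Around Irx5 the values were 9.08%, 3.52%, 38.3% and 38.7%, and around Irx6, the third gene of the same cluster, they were 18.1%, 8.62%, 39.9% and 41.1%. The mature replicates were close to each other and above both pre-adipocyte replicates at each gene. In all, the surroundings were at least 10 percentage points higher in both mature replicates than in both pre-adipocyte replicates at 6 members (7.59%), against 1.41% of all genes and 1.16% of other genes at equal length, a limit chosen after the values were seen. The others were Sox30 (5.69%, 3.24%, 26.7% and 24.0%), Tbx4 (14.4%, 7.08%, 25.2% and 25%) and Sox4 (30.0%, 11%, 44.0% and 43.1%). In each case the higher pre-adipocyte value was that of replicate 1, so the limit was in effect met against that single library. That library held 36468 regions against 59375 and 61196 in the mature replicates, but its regions were longer. Their median length was 5800 bp, against 3600 and 3400 bp. Around other genes of equal length its coverage was 11.4%, against 11.5% and 11% in the mature replicates. A difference between libraries cannot be told apart here from one between conditions. The reverse, surroundings at least 10 percentage points lower in both mature replicates, occurred at 0 members and at 0% of all genes. It could hardly occur, since surroundings in the shallow pre-adipocyte replicate 2 averaged 6.20% around members and 5.27% around other genes, so the counts in the 2 directions cannot be set against each other. Irx3, Irx5 and Irx6 share much of their surroundings and count as 3 members of a single place. With 2 samples against 2, no test of these values can give a p under 0.333.

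Inside the loci the Irx genes were less regular. Irx3 had 0%, 15.3%, 28.6% and 9.35% of its locus in regions, Irx5 had 0%, 0%, 0% and 10.3%, and Irx6 had 41.3%, 0%, 25.2% and 38.7%. At Sox4 the locus and its surroundings moved in opposite directions, since its regions were listed in pre-adipocytes alone. At Sox30, a gene of male germ cells, both were higher in mature adipocytes, with 8.48%, 5.55%, 64.3% and 30.2% of the locus in regions.

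Members with a known part in fat or its precursors had no common pattern. Tbx1 was covered in every sample, as given above. Tbx15, which marks subsets of white and brown preadipocytes, and Lhx8 had no region in any sample. Sox9, which holds preadipocytes in the undifferentiated state, had 42.8%, 10.0%, 25.7% and 31.9% of its locus in regions, none over its start, the nearest lying 1224, 10224, 1024 and 1624 bases from it. Pax3, a gene of the dermomyotome from which some brown fat derives, had 32.8%, 14.7%, 51.1% and 36.1%. Sox6, a very long gene of 567925 bp, had 0%, 0%, 0% and 1.53%. At Sox9 both mature values lay between the pre-adipocyte values. At Pax3 both mature values lay above both pre-adipocyte values, in the nearest case by a few percentage points.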

How the data were processed

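ChIP-Seq regions of 4 anti-GFP samples were analysed, and the library without antibody entered only through its counts. The authors mapped the single-end reads to mm10 using Bowtie (1.1.2 per the labels; unique hits, at most 2 mismatches), discarded duplicates (Picard) and ran SICER (1.1) on each sample. Their stated FDR was 1%, while 0.001 was the largest deposited. Deposited values are raw counts of ChIP and control reads per region, the p-value and FDR from SICER, and a fold, a ratio of both counts after scaling to library size. Relative library sizes were taken back from that ratio. Depth outside regions is unknown, since counts exist only inside them.

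The members and lists were chosen with earlier results of these data known. Loci were GENCODE M21 genes plus 10 kb on each side, overlapped by at least 1 bp. Other genes were weighted to the members' 10 length classes. Exact permutation over samples compared the per-sample values. Merged regions called in all 4 samples were tested with edgeR (quasi-likelihood, TMM on counts per called length, offset of log called length, Benjamini-Hochberg adjustment over 12857 regions). This script was tested on simulated counts, and the overlap functions against brute force. Regions called in fewer samples were outside this test. Genes named are the 8 most covered members, those with no region, those in 1 condition only, the 3 regions with the smallest p, 11 members known from adipose biology and neighbouring members. Of the members these rules name, 2 are not reported here and enter only the counts and averages. Members discussed beside these, such as Irx6 and Sox30, were chosen after their values were seen. Alternatives covered FDR, fold, flank, overlap, length classes, normalization, the DESeq2 test, the replicate block and each sample left out. Tools were edgeR 4.0.16 and DESeq2 1.42.0 (with limma 3.58.1) in R 4.3.3, and scipy 1.17.1, pandas 2.3.3, numpy 2.4.6 and matplotlib 3.10.9 in Python 3.11.15.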

Additional observations from a re-analysis of the deposited data

How the results depend on the processing

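The number of members with a region, the covered share of the joined loci and the excess of members over other genes kept their direction under every alternative run. With 4 samples none of their exact tests can reach 0.05, so the threshold says nothing of stability. The excess ranged from 2.17 to 7.41 percentage points, and it was 5.6 with classes of length and gene density together and 6.3 with 1 member per group of neighbours, both added after seeing the data. The enrichment inside regions (log2, mature minus pre-adipocytes, -0.014) turned to 0.0337 with regions of at least 2-fold enrichment and to 0.569 without library scaling, and ran from -0.152 to 0.123 with each sample left out. The difference in members with a covered start (1) became -0.5 at 2-fold enrichment and 0 with 1 kb around the start fully covered, and ran from -1 to 3 with each sample left out. Members marked in mature adipocytes only (6) numbered 8 to 11 with each sample left out. Those marked in pre-adipocytes only (2) numbered 1 at 2-fold enrichment, 0 with no flank, 1 with an overlap of at least 2000 bp, and 2 to 5 with each sample left out. With a sample left out, the counts of members marked in a single condition can only stay or rise, by the rule that defines them. Over all regions, edgeR called 11. It called 0 with library sizes from the fold enrichment, 27 with at least 50 reads in every sample and 1 to 224 with each sample left out, and DESeq2 called 2. At members 0 were called in each setting, except for 1 without pre-adipocyte replicate 2 (0 to 1 with each sample left out). The cause of the other changes was not tested.

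With the replicate block, the number of members with a region still differed by 8.5 (exact p = 0.5) and edgeR called 27 regions, none at members. The labels give same-numbered samples only a number in common. Their deviations in read density per called length had a correlation of 0.00775 over the regions called in all 4 samples. Taken only inside called regions, this value cannot tell whether the samples were paired. Depth limits pre-adipocyte replicate 2 most, and regions called in fewer than 4 samples could not be tested for a change.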

Other observations

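Genes that work with these families were looked at from a list fixed for this comparison, chosen with earlier results known. Of 16 cofactors, 9 had a region in at least 1 sample (56.2%, against 53.7% of all genes) and 6 in all 4 (37.5%, against 21.1%). Lmo2, a LIM-only protein of blood and vessel development, had 37.6%, 25.2%, 76.3% and 59.0% of its locus in regions. Eya2, a coactivator of sine oculis proteins, had 42.1%, 18.8%, 62.0% and 58.2%, and Eya4 had 35.8%, 7.54%, 51.2% and 51.5%. At Lmo2, Eya2 and Eya4, and at the little covered Eya1, both mature replicates were above both pre-adipocyte replicates. At Tle3 (14.7%, 4.43%, 12.4% and 3.63%) and Tle4 (5.06%, 6.47%, 4.15% and 8.74%), also with regions in every sample, they were not. The share of all genes with both mature replicates above both pre-adipocyte replicates was not counted. Ldb2 and Lmo4 had regions in both mature replicates and neither pre-adipocyte replicate (2 of 16, 12.5%, against 4.86% of all genes). Ldb1, the general partner of LIM-homeodomain proteins, Dach1, Eya3, Lmo1, Lmo3, Tle1 and Tle2 had none. The list's median locus, averaged over samples, was covered by 2.00%, compared with 5.25% for the 79 members and 0.641% for all genes.

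Of 77 other developmental transcription factors, 50 had a region in at least 1 sample (64.9%, against 53.7% of all genes) and 35 in both mature replicates (45.5%, against 34.4%). In both pre-adipocyte replicates 16 had one (20.8%, against 24.2%), and in all 4 samples 14 had one (18.2%, against 21.1%), and at the median locus 3.16% was covered. Neither these factors nor the cofactors were compared with other genes at equal gene length, as the members were. Evx2, beside the Hoxd cluster, had 18.1%, 21.8%, 51.1% and 62.3%, Meox1, a somite homeobox gene, 28.7%, 34.2%, 36.9% and 51.0%, and Gata4, a factor of heart and endoderm, 61.1%, 19.8%, 33.9% and 32.9%. Regions were listed in both mature replicates alone at 8 of the 77 (10.4%, against 4.86%) and in both pre-adipocyte replicates alone at 1 (1.30%, against 0.913%), Prrx2, a mesenchymal homeobox gene (12.1%, 7.85%, 0% and 0%). The gene start lay in a region in at least 1 sample at 5 of the 77 (6.49%, against 11.7% of all genes) and in all 4 samples at 0.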
